A study of Mus musculus with 18 samples.

Results

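The genes described here are 10 genes best known from fat cells: Adipoq, Plin1, Plin4, Cidec, Fabp4, Car3, Cfd, Lpl, Lipe and Lep. They were chosen by name from 21928 gene symbols in mRNA libraries of whole mouse small intestine, after their measured levels in these same libraries had been seen, in particular their spread between mice and their low level with high-fat diet. Their levels and differences are therefore given as a description, with no test. Of the 10 genes, 9 reached 1 FPKM (fragments per kilobase of transcript, scaled to the mapped fragments of each library) in at least 3 libraries and are among the 11767 genes tested across the whole table, and Lep is not.

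All mice were wild type C57BL/6. The male mice were unirradiated controls, mice given total abdominal irradiation (TAI), and mice given TAI combined with simvastatin, a cholesterol-lowering statin. The female mice were unirradiated controls, mice given TAI, and mice given TAI combined with a high-fat diet (HFD). Each of the 6 groups held 3 libraries, the dose was 12 Gy and the tissue was taken on day 21. Simvastatin was given in male groups and HFD in female groups among these libraries, and neither was given without TAI, so sex and treatment cannot be told apart between the male and female groups. Ages and the segment of intestine are not given in the sources used here.

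Adipocytes store triglyceride in a lipid droplet coated by perilipins, take up fatty acids that lipoprotein lipase releases from circulating lipoproteins, release them again through hormone-sensitive lipase, and secrete hormones such as adiponectin and leptin. In the gut, fat cells lie in the mesentery and its attachments rather than in the epithelium. Enterocytes, the absorptive cells of the epithelium, make lipid droplets of their own, so some droplet genes are at work in both cell types. In whole tissue, fewer cells of a type and less RNA per cell cannot be told apart.

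The relative depth of the libraries, read from the smallest steps of the FPKM values, lay between 0.785 and 1.18 times that of female control replicate 1, and absolute read numbers are not known from these files. The Y-linked gene Uty was at 8.94 to 12.4 FPKM in the 9 male libraries and at 0 FPKM in the 9 female ones. Enterocyte markers were abundant, the 8 listed genes summing to 17825 to 32593 FPKM. Defining adipocyte genes were present but low, with Adipoq at 0.431 to 9.80 FPKM. On the first principal component of all genes tested, which held 35.6% of the variance, female TAI replicate 3 stood apart at 43.8, against -29.0 to 24.4 in the other libraries. The folds of the fat cell genes, the marker sums and the genes called against female TAI are given with and without it. Calls of cell type markers are the exception, and apart from Fabp1 and Fabp2 they were not rerun without it.

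The region just before the start of transcription is shown for genes whose levels are contrasted below. Adipoq, Cfd and Plin4 varied together, Lep was near 0, and Cidec went its own way and has a pair of annotated starts. The letters are RefSeq sequence of build GRCm38.p6, 120 bases before each start, 5′ to 3′ on the gene's strand. The RefSeq table used held windows for 7 of the 10 genes, with 9 starts in all. Capitals mark the CCAAT box, the TATA box core TATAA, the nuclear receptor site AGGTCA and the palindrome TTGCGCAA, each on either strand.
Adipoq (chr16:23146416-23146535, plus strand): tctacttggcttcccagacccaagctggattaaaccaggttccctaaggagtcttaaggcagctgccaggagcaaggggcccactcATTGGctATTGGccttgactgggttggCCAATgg
Cfd (chr10:79890733-79890852, plus strand): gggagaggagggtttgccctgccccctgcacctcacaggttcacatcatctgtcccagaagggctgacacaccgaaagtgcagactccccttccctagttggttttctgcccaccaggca
Plin4 (chr17:56109783-56109902, minus strand): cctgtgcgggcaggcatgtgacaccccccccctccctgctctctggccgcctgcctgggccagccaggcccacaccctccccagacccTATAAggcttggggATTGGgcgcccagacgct
Lep (chr6:29060101-29060220, plus strand): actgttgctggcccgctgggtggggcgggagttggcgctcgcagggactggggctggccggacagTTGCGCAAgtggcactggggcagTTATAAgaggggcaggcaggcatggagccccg
Cidec upstream start (chr6:113435761-113435880, minus strand): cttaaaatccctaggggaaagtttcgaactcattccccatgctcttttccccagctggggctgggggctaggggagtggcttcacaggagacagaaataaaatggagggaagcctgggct
Cidec inner start (chr6:113434765-113434884, minus strand): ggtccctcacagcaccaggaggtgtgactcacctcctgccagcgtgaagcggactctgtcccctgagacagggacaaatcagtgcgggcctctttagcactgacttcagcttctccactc
The CCAAT box, or ATTGG on the other strand, occurred 3 times before the Adipoq start, at 34, 27 and 7 bases upstream, and once before Plin4. It was present in 21.3% of all 32851 windows of this length. TATAA or TTATA, the core of a TATA box, lay 32 bases before the Plin4 start and at 32 and 31 bases before that of Lep, where both spellings overlap, and was present in 11.8% of windows. TTGCGCAA, the palindrome bound by C/EBP factors, was found 55 bases before the Lep start and in 0.0822% of windows. AGGTCA or TGACCT, the site of many nuclear receptors, was found in none of the windows searched for these genes and in 6.91% of all windows. The distances are counted from the RefSeq starts. The Plin4 transcripts of GENCODE M21 begin at 56109802 and 56109803, inside the window shown. By that annotation the ATTGG of Plin4 lies within the transcript, and its TATAA lies nearer to the start. These matches describe letters only.

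Of the 9 genes above 0 in every library, Plin1, Cfd, Adipoq and Car3 had the widest range, the highest library being 22.6 to 26.5 times the lowest. Adipoq (chr16:23146536-23158028) encodes adiponectin, a hormone made by fat cells that acts on muscle and liver. In male mice its level was 8.84, 2.68 and 5.48 FPKM in the control libraries, 6.03, 2.57 and 1.02 FPKM after TAI, and 4.24, 3.20 and 0.899 FPKM after TAI with simvastatin. In female mice it was 1.05, 7.64 and 3.34 FPKM in controls, 8.95, 9.80 and 3.03 FPKM after TAI, and 0.783, 0.431 and 0.576 FPKM after TAI with HFD. The HFD libraries were the lowest of all 18, and every other pair of groups overlapped. By mean level the order was female TAI (7.26 ± 3.69 FPKM, SD, n = 3), male control (5.67 ± 3.09), female control (4.01 ± 3.35), male TAI (3.21 ± 2.56), male TAI+simvastatin (2.78 ± 1.71) and female TAI+HFD (0.596 ± 0.177), and of these neighbours only the last did not overlap.

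Cfd (chr10:79890853-79892655) encodes adipsin, or complement factor D, the protease that activates the alternative complement pathway. It was at 33.6, 11.1 and 20.95 FPKM in male controls, 28.7, 18.7 and 5.67 FPKM after TAI, and 33.4, 16.3 and 9.92 FPKM after TAI with simvastatin. Female controls had 7.72, 59.2 and 23.3 FPKM, irradiated females 49.0, 81.4 and 28.0 FPKM, and irradiated females on HFD 3.87, 3.25 and 3.83 FPKM. Female control libraries thus differed among themselves by 7.67 times, while the HFD libraries lay within 1.19 times of each other and below the other 15.

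Lep (chr6:29060220-29073877) encodes leptin, the hormone that reports fat stores to the brain. It was never above 0.171 FPKM. It was listed at 0 in male TAI replicate 2 and in the 3 HFD libraries, and in the other 14 it lay between 0.0116 and 0.171 FPKM. No fold is given against a group listed at 0.

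**Figure D1:**
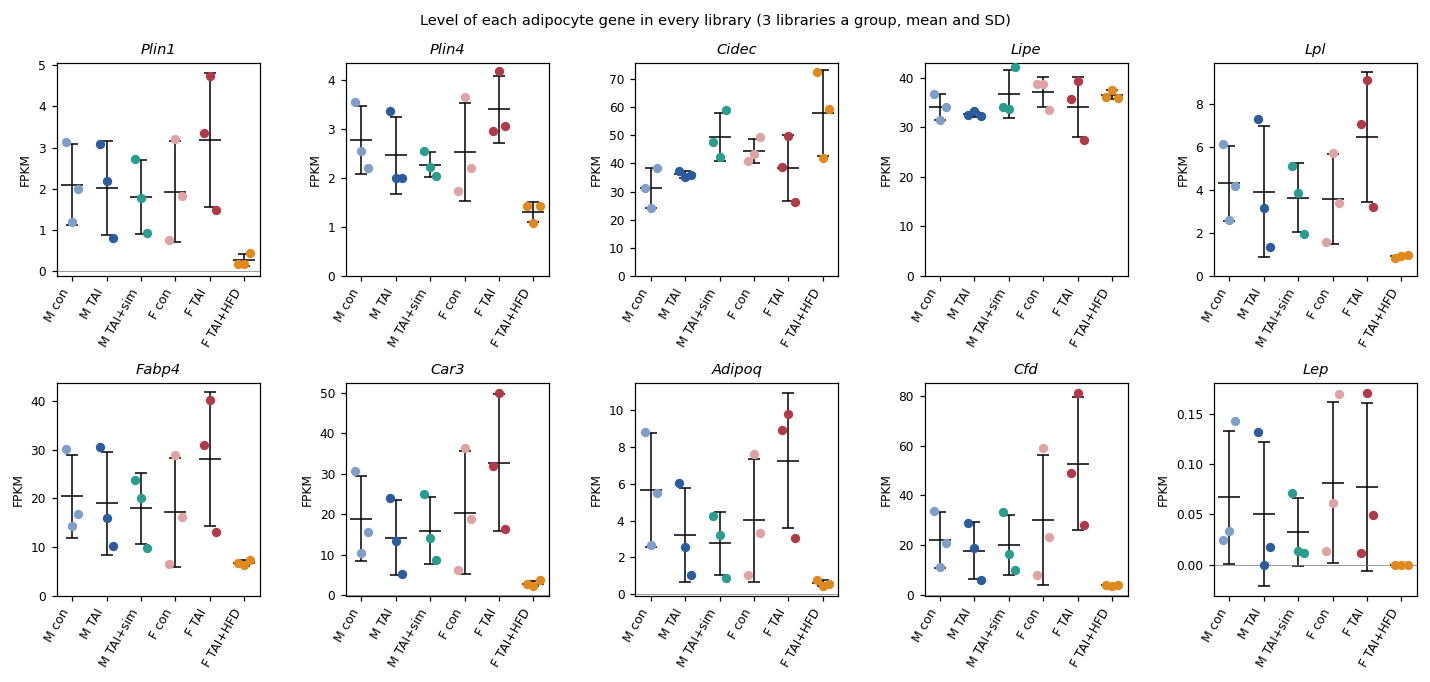
Level in FPKM (vertical axes, linear) of each of the 10 genes in the 18 libraries, by group (horizontal axes; M male, F female, con control, sim simvastatin). Points are libraries, bars are the mean and SD of 3 libraries. Adipoq, Cfd, Car3, Lpl, Plin1 and Plin4 are lowest in the 3 HFD libraries, while Lipe stays between 27.5 and 42.2 FPKM throughout.

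Plin1 (chr7:79720218-79732903), the main droplet coat protein of fat cells, followed the same libraries at a lower level. It was at 3.13, 1.20 and 1.98 FPKM in male controls, 3.08, 2.196 and 0.815 FPKM after TAI and 2.72, 1.78 and 0.932 FPKM after TAI with simvastatin. In females it was at 0.766, 3.21 and 1.82 FPKM in controls, 3.36, 4.72 and 1.49 FPKM after TAI and 0.178, 0.189 and 0.446 FPKM with HFD. Its 3 HFD libraries were again below the other 15. The level is a sum over 7 listed transcripts, the largest of which, Plin1-206, took 40.9% of it.

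Plin4 (chr17:56100591-56109803), a perilipin of small nascent droplets that is also made in muscle, varied least of the genes that moved together, from 1.08 to 4.18 FPKM. In male mice it was at 3.53, 2.55 and 2.21 FPKM in controls, 3.37, 2.01 and 1.997 FPKM after TAI, and 2.55, 2.21 and 2.04 FPKM after TAI with simvastatin. In female mice it was at 1.73, 3.65 and 2.19 FPKM in controls, 2.96, 4.18 and 3.05 FPKM after TAI, and 1.43, 1.08 and 1.43 FPKM with HFD.

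Lpl (chr8:68880491-68907448) encodes lipoprotein lipase, which frees fatty acids from triglyceride-rich lipoproteins on the capillary wall. It was at 6.13, 2.61 and 4.18 FPKM in male controls, 7.30, 3.15 and 1.34 FPKM after TAI, and 5.12, 3.85 and 1.95 FPKM after TAI with simvastatin. Female controls had 1.58, 5.74 and 3.41 FPKM, irradiated females 7.05, 9.13 and 3.20 FPKM, and irradiated females on HFD 0.836, 0.954 and 0.971 FPKM.

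Fabp4 (chr3:10204088-10208576) encodes the adipocyte fatty acid binding protein, which macrophages and capillary endothelium also make. It was at 30.1, 14.3 and 16.9 FPKM in male controls, 30.6, 16.0 and 10.3 FPKM after TAI, and 23.9, 20.2 and 9.86 FPKM after TAI with simvastatin. Female controls had 6.49, 28.8 and 16.3 FPKM, irradiated females 31.0, 40.1 and 13.2 FPKM, and irradiated females on HFD 6.75, 6.31 and 7.41 FPKM. It was the one gene of those moving together whose HFD libraries were not below the other 15, since female control replicate 1 lay among them.

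Car3 (chr3:14863512-14872523), a carbonic anhydrase abundant in fat and slow muscle, was at 30.7, 10.6 and 15.6 FPKM in male controls, 23.9, 13.4 and 5.36 FPKM after TAI, and 24.9, 14.2 and 8.67 FPKM after TAI with simvastatin. Female controls had 6.18, 36.3 and 18.8 FPKM, irradiated females 32.0, 50.0 and 16.3 FPKM, and irradiated females on HFD 2.80, 2.22 and 3.68 FPKM. Over the 18 libraries Car3 spanned 22.6 times, Adipoq 22.8 times, Cfd 25.1 times and Plin1 26.5 times.

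Lipe and Cidec behaved differently. Lipe (chr7:25379527-25398710) encodes hormone-sensitive lipase, the fat cell enzyme that cleaves diacylglycerol, which is active in other tissues as well. It was at 36.8, 31.5 and 34.0 FPKM in male controls, 32.4, 33.2 and 32.3 FPKM after TAI, and 34.0, 33.7 and 42.2 FPKM after TAI with simvastatin. Female controls had 38.8, 38.8 and 33.6 FPKM, irradiated females 35.8, 39.3 and 27.5 FPKM, and irradiated females on HFD 36.1, 37.6 and 36.0 FPKM. Its highest level was 1.54 times its lowest, and the lowest was in female TAI replicate 3, the library that stood apart. Lipe-208 carried 46.7% of the total and Lipe-201 29.6%.

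Cidec (chr6:113424634-113435760), named Fsp27 in older work, encodes a protein that fuses lipid droplets. It was at 31.4, 24.3 and 38.4 FPKM in male controls, 37.3, 35.0 and 36.0 FPKM after TAI, and 47.6, 42.1 and 58.9 FPKM after TAI with simvastatin, and the simvastatin libraries lay above both other male groups. Female controls had 40.7, 43.3 and 49.3 FPKM, irradiated females 38.7, 49.8 and 26.4 FPKM, and irradiated females on HFD 72.3, 41.8 and 59.5 FPKM. The HFD libraries overlapped both other female groups, and their mean of 57.9 ± 15.3 FPKM was the highest of the 6 groups.

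Levels above 0 were listed in every library for transcripts of both starts of Cidec printed above. Transcripts Cidec-201 and Cidec-202 begin at the upstream start and Cidec-203 and Cidec-204 at or just after the inner one, about 1 kilobase into the gene. The upstream pair summed to 21.8 ± 4.70 FPKM (SD, n = 3) in male controls, 19.4 ± 8.22 after TAI, 25.7 ± 6.90 after TAI with simvastatin, 30.0 ± 3.25 in female controls, 23.2 ± 4.45 after TAI and 24.6 ± 4.63 after TAI with HFD. The inner pair summed to 9.50 ± 2.40, 16.7 ± 8.19, 23.8 ± 14.6, 14.4 ± 1.32, 15.1 ± 9.37 and 33.2 ± 18.1 FPKM in the same order of groups.

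The share given to the inner start fell into separate ranges. It was 28.6% to 35.2% of Cidec in 13 libraries and 51.6% to 72.5% in the other 5, which were male TAI replicate 3, male TAI+simvastatin replicate 3, female TAI replicate 2 and female TAI+HFD replicates 1 and 3. With HFD the inner start was thus at 47.1, 12.8 and 39.7 FPKM, and the upstream start at 25.2, 29.0 and 19.8 FPKM. These transcripts share most exons, so the split depends on how reads were assigned and was not checked on reads. Within the upstream pair, Cidec-201 was listed at 0 in 13 libraries and at 12.1 to 25.5 FPKM in 5. Those 5 were male control replicate 3, male TAI replicate 1, male TAI+simvastatin replicate 1 and female TAI replicates 1 and 3. None of them was a library with most of Cidec from the inner start.

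**Figure D2:**
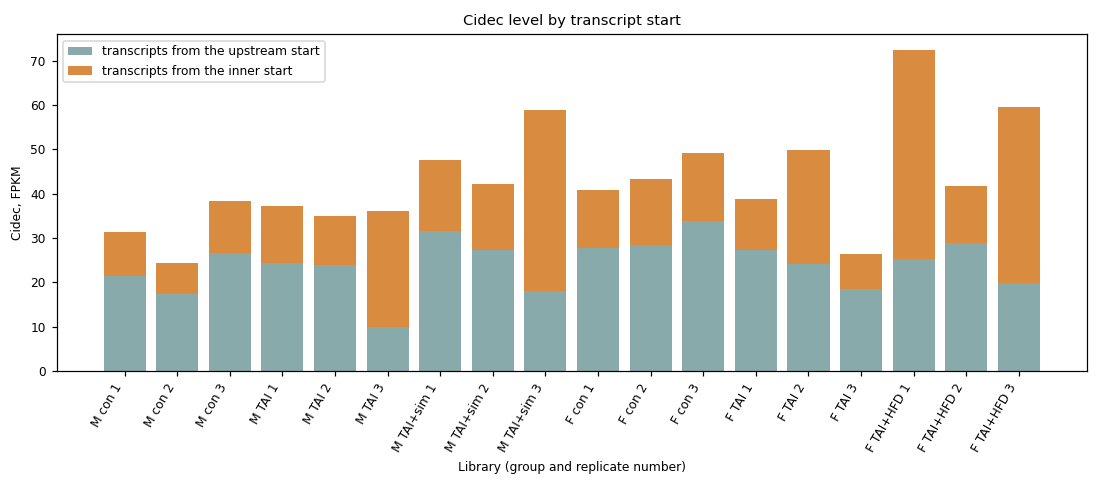
Cidec level in FPKM (vertical axis) in each of the 18 libraries (horizontal axis), stacked by transcript start. The inner start holds over 51% of the level in 5 libraries, among them HFD replicates 1 and 3 at 47.1 and 39.7 FPKM, and under 36% in the other 13.

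The 10 genes fell into those that rose and fell together and those that did not. On the log2(FPKM + 1) scale over the 18 libraries, the 7 genes Adipoq, Plin1, Plin4, Fabp4, Car3, Cfd and Lpl correlated pairwise with Pearson r of 0.90 to 0.99 (median 0.96, 21 pairs) and Spearman rho of 0.86 to 0.99. These 7 were singled out after their values were seen, and the points share library, depth and tissue piece. After each group's mean was subtracted, r was 0.77 to 0.98, so the likeness held between mice of the same group, and without female TAI replicate 2 and HFD replicate 2, the libraries farthest from the median of Adipoq, it was 0.85 to 0.99. Lep had an r of 0.52 to 0.60 with the 7 genes, Cidec -0.38 to -0.26 and Lipe -0.10 to -0.03. Within groups Lep had an r of 0.34 to 0.50 with them, Cidec 0.23 to 0.35 and Lipe 0.20 to 0.29, so that the sign turned for Cidec and Lipe.

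Outside the HFD group, the same mice were high or low for all or nearly all of these genes. Replicate 1 was the highest library for all 7 genes in each of the 3 male groups, and replicate 2 in both female groups without HFD. The lowest library was replicate 3 for all 7 genes in male TAI and in male TAI+simvastatin, replicate 1 for all 7 in female control, and replicate 2 for 6 of 7 in male control. Female TAI replicate 3 was the lowest of its group for 6 of the 7, and only Plin4 was lower in replicate 1. With HFD, where levels were low, replicate 3 was the highest for 5 of the 7 genes and replicate 1 for 2, and replicate 2 was the lowest for 5 and replicate 1 for 2. The sources used here do not say that a replicate number links mice of different groups.

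**Figure D3:**
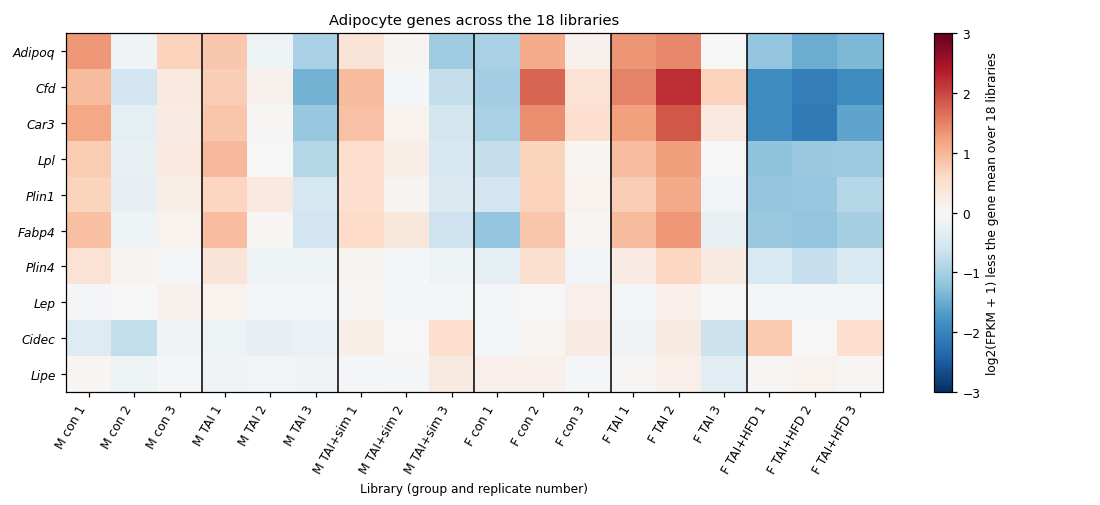
Difference of log2(FPKM + 1) from each gene's own mean over 18 libraries (colour scale, red higher and blue lower) for the 10 genes (rows) in each library (columns, by group and replicate number). The 7 upper genes change colour together from mouse to mouse and are all blue in the 3 HFD libraries, while Lep follows them more weakly and Cidec and Lipe do not.

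Measured against Adipoq in the same library, the ratios of Car3 and Cfd with HFD lay within their range in the other libraries. Those of Fabp4, Plin4 and, narrowly, Lpl reached above theirs, and that of Plin1 reached below its own. With HFD the ratios divide by Adipoq at 0.431 to 0.783 FPKM, a level of unknown precision. The ratio of Car3 to Adipoq had a median of 5.10 (2.85 to 9.65) in the 15 libraries without HFD and was 3.58 to 6.39 with HFD. For Cfd the median ratio was 6.98 (3.80 to 11.0) without HFD and the range 4.95 to 7.54 with HFD. Fabp4 stood at 3.08 to 11.0 times Adipoq without HFD and 8.63 to 14.6 times with HFD. For Plin4 the ratio was 0.331 to 2.27 without HFD and 1.83 to 2.50 with HFD. For Lpl it was 0.693 to 2.17 without HFD and 1.07 to 2.22 with HFD, and for Plin1 0.354 to 1.04 and 0.228 to 0.776. Straight lines fitted through the 18 libraries met the axis, where Adipoq would be 0, at 0.398 FPKM for Plin1, 0.641 for Cfd, 0.892 for Lpl, 1.52 for Plin4, 2.02 for Car3 and 6.07 for Fabp4. For Lipe and Cidec the line was nearly flat or sloped down, with intercepts of 34.7 and 47.0 FPKM.

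High-fat diet after TAI, compared with TAI alone in females, was the contrast with the widest gap. Mean FPKM with HFD was lower by 14.5 times for Cfd (3.65 ± 0.349 against 52.8 ± 26.9), 12.2 times for Adipoq, 11.8 times for Plin1 (0.271 ± 0.152 against 3.19 ± 1.62), 11.3 times for Car3 (2.90 ± 0.736 against 32.8 ± 16.9), 7.02 times for Lpl (0.920 ± 0.0738 against 6.46 ± 3.01), 4.12 times for Fabp4 (6.82 ± 0.555 against 28.1 ± 13.7) and 2.59 times for Plin4 (1.31 ± 0.204 against 3.40 ± 0.680). Without female TAI replicate 3 these became 17.9, 15.7, 14.9, 14.1, 8.79, 5.21 and 2.72 times. Lipe differed by 0.11 on the log2(FPKM + 1) scale and by -0.04 without that library, and Cidec by 0.59 and 0.35. Including Lep, 8 of the 10 genes had groups that did not overlap, against 17.5% of the genes tested, and since the genes were selected on such values nothing is read from that count. The median difference of the 10 genes was -1.71 on the log2(FPKM + 1) scale, which understates the change of low genes, and -0.01 over all genes tested.

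Against unirradiated females, which share the HFD libraries with the previous comparison, mean FPKM with HFD was lower by 8.23 times for Cfd, 7.13 times for Plin1, 7.05 times for Car3, 6.73 times for Adipoq, 3.89 times for Lpl, 2.52 times for Fabp4 and 1.92 times for Plin4. These values leaned on female control replicate 2, without which they became 4.25, 4.77, 4.31, 3.68, 2.71, 1.67 and 1.49 times, and the median difference of the 10 genes went from -1.06 to -0.68 on the log2(FPKM + 1) scale. The groups did not overlap for 7 of the 10 genes (39.9% of the genes tested), and Fabp4, Cidec and Lipe overlapped. In 6 of the 10 genes, Adipoq, Plin1, Plin4, Car3, Cfd and Lpl, the 3 HFD libraries were below all 15 others, as for 2.05% of the genes tested. The margin was narrow for Adipoq, with 0.783 FPKM in the highest HFD library against 0.899 FPKM in male TAI+simvastatin replicate 3, and wider for Car3 (3.68 against 5.36 FPKM in male TAI replicate 3).

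Cell type markers also differed between these groups. In the limma fit of HFD against TAI, 4 of 8 enterocyte markers were called higher and 1 of 9 smooth muscle markers lower (3.16% of all genes tested). Before adjustment 7 smooth muscle and 5 of 7 fibroblast markers were lower. No marker of the other lists, fibroblast included, was called. The sums below weigh abundant genes most. The 8 enterocyte markers summed to 30144 to 32593 FPKM with HFD, against 17825 to 21708 FPKM after TAI alone and 25161 to 26294 FPKM in female controls. Fabp1 and Fabp2, described below, are among them, and the other 6 summed to 19138 to 21788, 12332 to 15771 and 17203 to 18433 FPKM. The 9 smooth muscle markers summed to 255 to 289 FPKM with HFD, 278 to 506 FPKM after TAI and 354 to 425 FPKM in controls, and the 8 mesothelial markers to 5.29 to 6.49, 6.97 to 11.9 and 6.18 to 10.5 FPKM. The 8 fibroblast markers summed to 46.3 to 50.2, 55.4 to 105 and 45.5 to 69.8 FPKM. The 10 endothelial markers (19.0 to 21.8, 18.8 to 28.4 and 12.9 to 18.8 FPKM) and the 9 macrophage markers (63.0 to 64.5, 63.1 to 82.5 and 53.6 to 61.7 FPKM) overlapped between HFD and TAI or nearly so. Of the 12 pancreatic acinar markers 10 were under 1 FPKM in every library, with Cpa1 and Cela3b at 0 throughout, and their sum of 4.49 to 18.5 FPKM came mostly from Clps, which was at 16.5 FPKM in female TAI replicate 3 and 7.11 to 14.1 FPKM with HFD. Of the 8 skeletal muscle markers 5 were under 1 FPKM in every library, and the sum lay between 4.53 and 18.9 FPKM. The 6 lymph node markers summed to 1.37 to 25.8 FPKM. Without female TAI replicate 3, the sums after TAI were 20557 to 21708 FPKM for enterocytes, 278 to 425 for smooth muscle, 55.4 to 67.5 for fibroblasts, 18.8 to 19.2 for endothelium, 63.1 to 63.4 for macrophages and 4.49 to 4.96 for pancreatic acinar markers. That library alone had 105 FPKM of fibroblast markers and the highest endothelial, macrophage and smooth muscle sums of its group. The part of any of these in the levels of the fat cell genes was not tested.

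Across all 18 libraries a score, the mean over the 10 genes of log2(FPKM + 1) less each gene's mean, correlated with the summed markers at r = 0.52 for mesothelium, 0.45 for fibroblast, 0.42 for smooth muscle, 0.04 for endothelium, 0.00 for macrophage, -0.06 for skeletal muscle, -0.16 for lymph node, -0.47 for enterocyte and -0.61 for pancreatic acinar. Within groups the value was 0.38 for mesothelium, 0.14 for fibroblast, -0.11 for smooth muscle, 0.48 for enterocyte and -0.59 for pancreatic acinar. The sign thus turned for smooth muscle and enterocyte. These are descriptions over libraries that share tissue and depth.

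TAI alone did not separate the groups for any of these genes. In females mean FPKM after TAI was above control by 1.81 times for Adipoq, 1.81 for Lpl, 1.76 for Cfd, 1.65 for Plin1, 1.64 for Fabp4, 1.61 for Car3 and 1.35 for Plin4. Without female TAI replicate 3 these became 2.34, 2.26, 2.17, 2.09, 2.07, 2.01 and 1.42 times, and without female control replicate 2 they became 3.31, 2.59, 3.40, 2.47, 2.47, 2.62 and 1.73 times. All 10 genes overlapped between the groups (14.4% of genes tested did not). The median difference was 0.62 on the log2(FPKM + 1) scale, against 0.12 over all genes tested, and ranged from 0.19 without female control replicate 1 to 0.97 without female TAI replicate 3. In males the median difference after TAI was -0.15 (0.05 over all genes tested) and turned to 0.12 without male TAI replicate 3, and 0 of 10 genes had groups that did not overlap (17% of genes tested). Adipoq differed most, with 3.21 ± 2.56 against 5.67 ± 3.09 FPKM. Whether males and females differed in this was not tested.

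After TAI with simvastatin the 7 genes that vary together overlapped with TAI alone. The median difference of the 10 genes was 0.01 and lay between -0.33 and 0.37 when replicate 3 or replicate 1 of male TAI was left out. Only Cidec (49.5 ± 8.53 against 36.1 ± 1.14 FPKM) and Lipe (36.6 ± 4.82 against 32.6 ± 0.505 FPKM) had groups that did not overlap, 2 of 10 genes beside 25.4% of genes tested. Against unirradiated males, who share the simvastatin libraries, only Cidec did not overlap (1.58 times the control mean of 31.3 ± 7.07 FPKM), again beside 25.4% of genes tested. The median difference there was -0.18, and turned to 0.10 without male control replicate 1 or without male TAI+simvastatin replicate 3.

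A list of 23 other adipocyte genes was tested with limma in the fit over all genes, all of them measured, and 17 passed the filter on low values. None passed the threshold of 0.05 for the adjusted p after TAI in males (before adjustment, p was under 0.05 for 3 that were higher and 1 that was lower, and 2.1% of all genes tested passed the threshold), with simvastatin against TAI (1 higher and 0 lower before adjustment, 0.697% of all genes) or after TAI in females (2 higher and 1 lower before adjustment, 0.756%). With HFD against TAI 1 of the 17 fell (3.16% of all genes), and before adjustment 4 were higher and 5 lower. With HFD against control 1 fell (4.59%), and before adjustment 5 were higher and 3 lower. With simvastatin against male control 2 rose (5.37%), and before adjustment 3 were higher and 2 lower. The median difference of the 17 genes was -0.08 for HFD against TAI (-0.01 over all genes tested), 0.18 for HFD against control (0.10) and -0.18 for simvastatin against control (-0.07). Nothing particular to the list is read from counts of 1 or 2 genes.

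The gene that fell with HFD against TAI was Adrb3, the beta-3 adrenergic receptor that starts lipolysis in fat cells. It was at 0.158, 0.127 and 0.314 FPKM with HFD and 1.11, 2.21 and 0.771 FPKM after TAI, a fall of 0.94 on the log2(FPKM + 1) scale (SE 0.21, adjusted p = 0.0246). It no longer passed when replicate 2 of female TAI was left out (adjusted p = 0.105), without HFD replicate 1 (0.0968) or replicate 2 (0.0982), and in a fit of these 2 groups alone (0.195), and without female TAI replicate 3 the fall was 1.12 (0.00884). Retn, which encodes resistin in mouse fat, was at 0.336, 0.364 and 0.705 FPKM with HFD and 3.33, 3.98 and 1.01 FPKM after TAI (adjusted p = 0.165), and Thrsp, a lipogenesis regulator, was at 1.40, 1.07 and 0.949 FPKM against 6.31, 7.97 and 2.59 FPKM (adjusted p = 0.147). Neither passed the test, and their groups did not overlap, as for 17.5% of all genes tested. Both were picked for this after their values were seen. Without female TAI replicate 3 the adjusted p was 0.0487 for Retn and 0.0589 for Thrsp, and without any other 1 library of the 2 groups it was 0.2302 to 0.438 for Retn and 0.229 to 0.395 for Thrsp.

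Slc2a4, the insulin-responsive glucose transporter of fat and muscle, was the gene that fell with HFD against control, from 2.97 ± 0.671 to 1.54 ± 0.164 FPKM (difference -0.63, SE 0.16, adjusted p = 0.0327). It lost the call without female control replicate 2 (adjusted p = 0.0861), female control replicate 3 (0.0941), or HFD replicate 1 (0.116), 2 (0.119) or 3 (0.061), and with no filter on low values (0.0567). The genes that rose with simvastatin against control were Dgat2, an enzyme of triglyceride synthesis that enterocytes also use (196.9 ± 25.3 against 79.4 ± 18.2 FPKM, difference 1.31, SE 0.24, adjusted p = 0.00398), and Gpd1, glycerol-3-phosphate dehydrogenase (225.2 ± 7.29 against 147.0 ± 17.1 FPKM, difference 0.62, SE 0.15, adjusted p = 0.0279). The call of Gpd1 was lost without male control replicate 1 or 2 or any 1 simvastatin library (adjusted p of 0.0606 to 0.102) and under median ratio scaling (0.0979) or quantile normalization (0.0744), while that of Dgat2 held in every alternative run.

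Relatives of the fat cell genes that enterocytes use in quantity, Plin2, Fabp1 and Fabp2, rose with HFD. Among 14 droplet and lipolysis partners, 10 of them tested, Plin2, the droplet coat of most cells, was the only one called, beside 3.16% of all genes tested with HFD against TAI and 4.59% against control. It was at 51.2, 44.4 and 45.7 FPKM with HFD, 28.6, 32.6 and 22.2 FPKM after TAI and 29.2, 30.4 and 30.4 FPKM in controls, and it rose against both (0.76, SE 0.10, adjusted p = 0.000776, and 0.63, adjusted p = 0.00249). Without female TAI replicate 3 the first difference was 0.61 (adjusted p = 0.000734). The first call was lost in a fit of the 2 groups alone (adjusted p = 0.111) and the second under median ratio scaling (0.0637). Dgat1, Plin3 and Cideb, the most abundant of the list at 297.7, 144.7 and 129.1 FPKM on average, passed in none of the 6 comparisons.

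In the fatty acid binding family, 3 of the 6 relatives of Fabp4 were tested. Of these, 2 were called with HFD against TAI (3.16% of all genes tested) and 1 with HFD against control (4.59%). Fabp1, the liver type, rose with HFD to 3728 ± 213.1 FPKM from 1651 ± 290.8 after TAI (difference 1.19, SE 0.16, adjusted p = 0.000776) and from 2003 ± 185.2 in controls (0.90, adjusted p = 0.00501). Fabp2, the intestinal type, rose to 7414 ± 634.8 from 3857 ± 686.1 FPKM after TAI (0.96, SE 0.16, adjusted p = 0.0032). Without female TAI replicate 3 the differences from TAI were 1.04 for Fabp1 (adjusted p = 0.00269) and 1.02 for Fabp2 (adjusted p = 0.00448). Both lost the call against TAI in a fit of the 2 groups alone (adjusted p of 0.0594 and 0.137), Fabp1 lost that against controls under median ratio scaling (0.0507), and Fabp2 lost its call with no filter on low values (0.0575). Fabp5, the epidermal type, was at 1.01 to 3.62 FPKM and was not called. Fabp6, the ileal bile acid binding type, was listed at 0 in 14 libraries and reached 15.6 FPKM in 1, female TAI replicate 3.

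**Figure D4:**
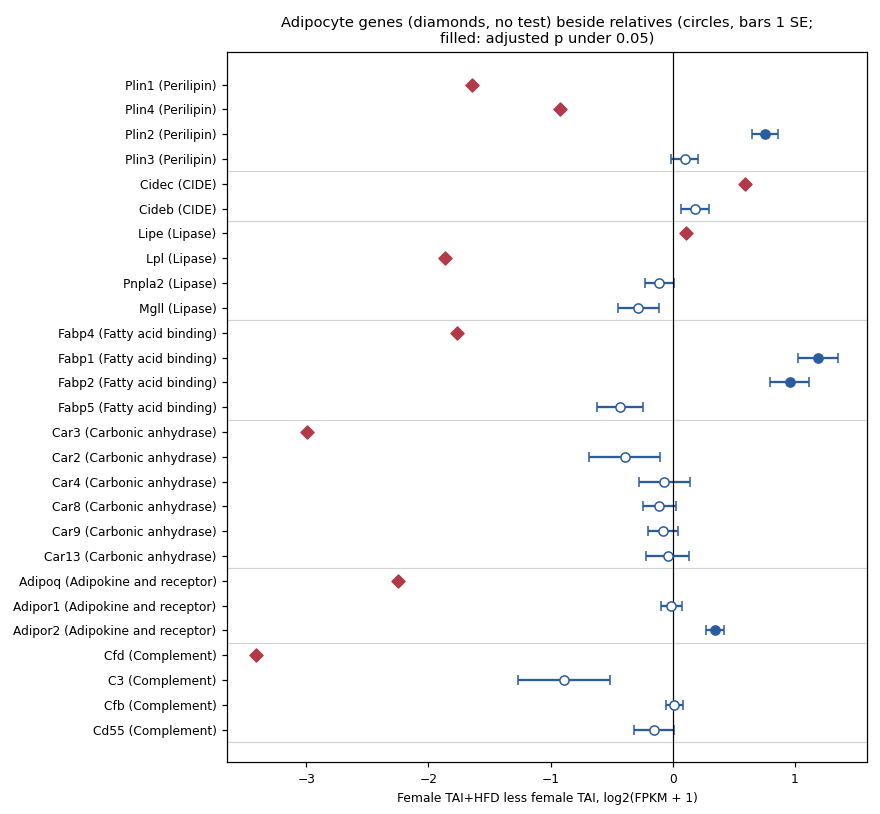
Difference in log2(FPKM + 1) between female TAI+HFD and female TAI (horizontal axis) for fat cell genes (diamonds, no test) and relatives in the same families (circles with 1 SE, filled where the adjusted p is under 0.05). Plin1, Plin4 and Fabp4 lie at -1.65, -0.92 and -1.77, while Plin2, Fabp1 and Fabp2 lie at 0.76, 1.19 and 0.96.

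Of 13 partners of lipoprotein lipase, 8 were tested, and 1 was called with HFD against TAI, beside 3.16% of all genes tested. Apoc2, the cofactor that switches the enzyme on, rose with HFD against TAI to 1686 ± 240.7 from 442.8 ± 281.2 FPKM (difference 2.13, SE 0.33, adjusted p = 0.00196), with female TAI replicate 2 at 186.9 and replicate 1 at 743.9 FPKM, and lost the call in a fit of the 2 groups alone (adjusted p = 0.137). Without replicate 3 the difference was 2.16 (adjusted p = 0.0052). No other was called in any comparison, the most abundant being Apoc3, which inhibits the enzyme, and Sel1l, which helps it fold, at 501.3 and 28.3 FPKM on average. Gpihbp1, the capillary anchor of the enzyme, stayed at 0.0524 to 1.05 FPKM.

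Of 12 adipokine receptors and partners, 11 were tested. After TAI in males 1 was called higher and 1 lower (2.1% of all genes tested). With HFD against TAI 1 was higher (3.16%), and with simvastatin against control 2 were higher and 1 lower (5.37%). Adipor2, an adiponectin receptor, was at 140.9 ± 3.29 FPKM in male controls and fell after TAI (114.8 ± 1.59, difference -0.29, adjusted p = 0.0444) and after TAI with simvastatin (105.3 ± 9.09, -0.42, adjusted p = 0.00218), and it rose with HFD against TAI (176.6 ± 7.71 against 139.0 ± 9.56, 0.34, adjusted p = 0.0138). The first call was lost without any 1 of the 6 libraries (adjusted p of 0.0988 to 0.136), in a fit of the 2 groups alone (0.121) and under median ratio scaling (0.271). The second was lost under median ratio scaling (0.153), and the third under that (0.19), quantile normalization (0.206), without HFD replicate 1 (0.0816) and in a fit of the 2 groups alone (0.2205), while without female TAI replicate 3 it was 0.29 (adjusted p = 0.0351). Nampt, also called visfatin, rose after TAI in males from 22.9 ± 1.53 to 41.6 ± 1.90 FPKM (0.83, SE 0.10, adjusted p = 0.000318), a call that held in every alternative run, and was at 32.0 ± 3.18 FPKM with simvastatin (0.46 above control, adjusted p = 0.0125), a call lost without male control replicate 1 (0.0536) or simvastatin replicate 1 (0.0748). Socs3, an inhibitor of leptin receptor signalling, rose with simvastatin against control (0.74, SE 0.20, adjusted p = 0.0446) and lost the call without male control replicate 1 or 3 or any 1 simvastatin library (0.0646 to 0.2002), with no filter (0.0728) and in a fit of the 2 groups alone (0.105).

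Of the 12 other carbonic anhydrases, 6 were tested. In males 1 was called after TAI (2.1% of all genes tested) and 1 with simvastatin against control (5.37%). In females 1 was called after TAI (0.756%) and 1 with HFD against control (4.59%). Car8, a relative without enzyme activity, rose in males from 1.63 ± 0.271 FPKM to 2.98 ± 0.373 after TAI (0.60, adjusted p = 0.0271) and 2.84 ± 0.190 with simvastatin (0.55, adjusted p = 0.0242). The first call was lost without male control replicate 1 or 3 or male TAI replicate 1 or 3 (adjusted p of 0.066 to 0.147) and in a fit of the 2 groups alone (0.104), and the second without male control replicate 1 or 3 or any 1 simvastatin library (0.0531 to 0.104) and in a fit of the 2 groups alone (0.0508). Car9, a hypoxia-induced member, rose in females from 8.63 ± 0.741 FPKM to 14.4 ± 1.34 after TAI (0.68, adjusted p = 0.0346) and 13.5 ± 0.512 with HFD (0.59, adjusted p = 0.013). The first was lost without any 1 control library or female TAI replicate 2 or 3 (0.055 to 0.192), in a fit of the 2 groups alone (0.506), under median ratio scaling (0.0624) and with no filter (0.0551), and the second without female control replicate 1 (0.0648) or HFD replicate 2 (0.0622). Car4, Car13 and Car2 were the most abundant at 46.8, 45.8 and 16.8 FPKM on average and were not called, and the low mitochondrial Car5b, at 0.1 to 0.731 FPKM and so not tested, had an r of 0.93 with the score of the 10 genes and was named for that after its values were seen.

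Of 10 genes of the alternative complement pathway, on which adipsin acts, 7 were tested. After TAI in males 1 was called lower (2.1% of all genes tested), and with simvastatin against control 1 was higher and 1 lower (5.37%). Cd55, which shields cells by dissociating the C3 convertase, fell in males from 29.5 ± 5.22 FPKM to 14.7 ± 2.34 after TAI (-0.96, SE 0.17, adjusted p = 0.00616) and 16.1 ± 2.86 with simvastatin (-0.83, adjusted p = 0.00716), calls that held in every alternative run. C3ar1, the receptor of the C3a fragment, rose with simvastatin against control (0.63, SE 0.16, adjusted p = 0.0363), and so did Csf1r, C1qa and C1qc, 3 of the 8 macrophage markers tested, beside 5.37% of all genes tested. It lost the call without male control replicate 2 or 3 or any 1 simvastatin library (0.0672 to 0.159) and in a fit of the 2 groups alone (0.114). Cfb, the substrate of adipsin, was steady at 50.4 to 66.5 FPKM, and C3 was at 5.69 to 31.0 FPKM. Neither was called in any comparison.

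Among the 15 genes outside the 10 whose pattern over the 18 libraries was most like the score were Retn (r = 0.96), Trf (0.96), Scd1 (0.92), Thrsp (0.90), Cyp2e1 (0.90), Adrb3 (0.89), Aoc3 (0.83), Fasn (0.81), Pygl (0.80), Ccdc80 (0.79), Itga7 (0.77), Mrap (0.75) and Gm8909 (0.74). They were ranked on Pearson r of log2(FPKM + 1) among the genes tested, of which 0.23% had an r of at least 0.7 and the median r was -0.11. Trf, which encodes the iron carrier transferrin, was at 2.52 to 3.27 FPKM with HFD and 7.25 to 14.3 FPKM after TAI. Scd1, the stearoyl-CoA desaturase, was at 8.26 to 10.4 FPKM with HFD and 17.0 to 76.5 FPKM after TAI, and Fasn, fatty acid synthase, at 7.15 to 8.84 and 13.8 to 22.2 FPKM. Within groups the r was 0.97 for Retn, 0.94 for Trf, 0.93 for Scd1 and 0.90 for Fasn. With Adipoq alone in place of the score, 11 of the 15 genes were again among the first 15.

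Most of the other adipocyte genes did not follow the score. An r of at least 0.7 with the score was found for 6 of the 23 measured, Retn, Thrsp, Adrb3, Tusc5 (0.89), Adig (0.88) and Mrap, all of them at or under 8.27 FPKM. A negative r was found for 8, among them Gpd1 (-0.27), Dgat2 (-0.23) and the fatty acid transporter Cd36 (-0.44), which averaged 177.0, 146.3 and 34.5 FPKM. Within groups these were 0.16, 0.34 and -0.01, so the sign turned for Gpd1 and Dgat2, as it did for Aqp7, the glycerol channel (-0.21 overall and 0.58 within groups). Lgals12 and Acvr1c, both listed as fat cell markers, had a negative r (-0.34 and -0.29) that stayed negative within groups (-0.27 and -0.36). Lgals12 was at 1.26, 1.27 and 1.55 FPKM with HFD, and at 0.710, 1.15 and 0.708 FPKM in female controls. Acvr1c was at 1.90, 2.41 and 1.70 FPKM with HFD, and at 1.12, 1.22 and 0.602 FPKM in female controls. Both overlapped between HFD and TAI. Pparg, the nuclear receptor that drives fat cell differentiation, had an r of 0.20 at 4.66 to 10.8 FPKM, and Cebpa, its partner factor, -0.35 at 11.5 to 19.3 FPKM. Ucp1, the uncoupling protein of brown fat, was listed at 0 in 15 libraries and reached 0.477 FPKM at most.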

How the data were processed

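RNA of flash-frozen small intestine was extracted with Trizol, and libraries were made with the NEBNext Ultra kit; whether they keep strand is not given. The deposited table holds FPKM per transcript as the authors computed it, for 55869 transcripts in 18 libraries. Tools listed by the submitters' processing notes are StringTie 1.3.1, Cuffdiff 2.1.1, HISAT2 and Bowtie2 2.2.8, without their roles, and no genome build was found in the sources used here. FPKM was summed by gene symbol, so shared exons or near-identical copies could shift reads between genes. Gene positions are from GENCODE M21 (GRCm38), matched by identifier. Genes with at least 1 FPKM in 3 or more libraries were tested with limma 3.58.1 (R 4.3.3) on log2(FPKM + 1), with 1 mean per group over all 18 libraries and Benjamini-Hochberg adjustment over 11767 genes. Replicates are separate libraries of 3 mice a group. The fit was tested on simulated data first. Members and lists were chosen with earlier results of these data known. Of each list, the genes past the threshold in any comparison and up to 3 of the highest mean level were named, others being noted where they were picked after their values were seen. Some genes that the rule on likeness to the score selects are not reported here. Alternatives were a pseudocount of 0.1, no filter, quantile normalization, median ratio scaling, fits of 2 groups, a replicate block and leaving out each library. Leaving out libraries for the folds, the marker sums, Retn and Thrsp was chosen after seeing the data. Trarg1 and Tusc5 were listed separately but name 1 gene.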

Additional observations from a re-analysis of the deposited data

How the results depend on the processing

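The count of other adipocyte genes called stayed the same or within 1.5 times in 47 of 72 alternatives and moved in 25. It was 2 with a pseudocount of 0.1 in both HFD comparisons (1 in each as reported), 0 with no filter for HFD against control, and 1 after TAI in males, 2 for HFD against TAI and 2 for HFD against control under quantile normalization. Median ratio scaling gave 1 for simvastatin against control and 2 for HFD against control, and fits of the 2 groups alone gave 0 for HFD against TAI and 4 for HFD against control. Leaving out 1 library gave 1 to 2 for simvastatin against control, 0 to 1 for HFD against control and 0 to 2 for TAI in females (2 without female TAI replicate 1). For HFD against TAI it gave 0 to 3 (3 without female TAI replicate 1, 0 without HFD replicate 1 or 2). The genes called there changed in name and direction. Without female TAI replicate 1 they were Adrb3 and Slc2a4, lower, and Aqp7, higher by 1.17. Without replicate 2 only Dgat2 was called, higher by 0.97, and without replicate 3 Adrb3 and Retn, both lower. The median difference of the 10 genes for HFD against TAI was -2.22 with a pseudocount of 0.1 (-1.71 as reported), and -2.10 to -1.42 when 1 library was left out. The median of all genes after TAI in females was 0.12 as deposited and -0.01 under quantile normalization or median ratio scaling. A replicate block left each count of other adipocyte genes as it was, such as 2 for simvastatin against control. It ended the calls of C3ar1 and Socs3 for that comparison (adjusted p of 0.0582 and 0.0561) and no other call that was rerun. Calls of cell type markers, such as Csf1r, C1qa and C1qc, were not rerun in any alternative, apart from Fabp1 and Fabp2. The numbers were not taken as pairs, since the sources used here do not say that equal numbers mark a shared batch. In no comparison was the correlation of same-numbered libraries over 0.1 for all 3 numbers (r of -0.46 to 0.32). For replicate 1 it was 0.13 to 0.32. Whether equal numbers share a batch was not tested. The cause of these changes was not tested. FPKM gives no read counts, so the precision of levels under 1 FPKM, such as Lep, is unknown.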
